A study of Mus musculus with 6 samples.

Results

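The strain effect of a replaced chromosome 19 was read in the fetal testis at E13.5, an embryonic day in mid-gestation. The comparison used 2 of the 6 arrays of the series, chosen by their labels as the E13.5 testis of 129/Sv and of 129.MOLF-Chr19. The first is an inbred strain, and the second is a consomic strain, in which chromosome 19 of the MOLF strain stands on the 129 background. Each array held RNA pooled from 20 pairs of whole male genital ridges, so each strain was represented by 1 pool and 1 array. There was therefore no replicate check of any difference, no test was made and no p-value is given. The other 4 arrays held whole male E13.5 embryos and newborn testes of postnatal day 1 (PN1) from the same strains, and they were used only to read the same probe sets in other tissues. The number of arrays limits the precision of every value.

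At E13.5 the fetal testis has just formed its cords, in which Sertoli cells enclose the germ cells, while Leydig, peritubular, endothelial and other interstitial cells lie between them. Male germ cells of this age stop dividing and lower their pluripotency genes. The 129 family of strains is known for testicular germ cell tumours that start from germ cells which fail to make this change, and the submitters use the consomic strain because its tumour incidence is high. An Affymetrix probe set is a group of short probes designed against one stretch of a transcript, and many genes have several, so a gene can be read more than once on the same array.

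The tissue label was checked against the markers of its cell types. In 129/Sv the Sertoli cell markers lay a median of 1.38 higher (log2) in the E13.5 testis than in the E13.5 embryo, the fetal Leydig cell markers 1.26 higher and the germ cell markers 0.66 higher. Muscle and neural markers had medians of −2.52 and −1.97 in the same comparison. The Sertoli cell gene Sox9 read 1625 on the 129/Sv array and 1341 on the 129.MOLF-Chr19 array, and the germ cell gene Dazl read 5114 and 3505. Xist, which is made from the inactive X chromosome in female cells, was not above the median of either array, and the Y-linked gene Uty read 444 and 414. Gapdh ratios of 3 prime to 5 prime signal were 0.92 and 0.93, and those of Actb were 1.15 and 1.09, so the arrays were alike in this measure of RNA quality.

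Differences are log2 values in 129.MOLF-Chr19 minus 129/Sv, taken after each array was centred on its own median, and intensities are the deposited values before centring. The array medians were 239.1 in 129/Sv and 220.5 in 129.MOLF-Chr19, a shift of −0.117 on the log2 scale, and every difference below is relative to it. A probe set was compared where at least one of its arrays read above that array's median. This left 23679 of 45101 probe sets, and 12526 of 18193 genes by the probe set that represents each gene. Values below the 25th percentile of an array were raised to it, and a fold that uses such a value is a lower bound.

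The arrays of both strains were much alike, with a Pearson correlation of 0.970 over the compared probe sets, which share a design and are not independent replicates. Differences had a standard deviation of 0.27 and a median of 0.07, and 60.4% of them were above 0. The median rose with signal, from −0.01 in the dimmest of 5 equal bins of compared probe sets to 0.12 in the brightest, so a small positive value of a bright gene is near the centre of its neighbours. Only 24 probe sets were at least 2-fold higher in 129.MOLF-Chr19 (0.101% of those compared) and 16 at least 2-fold lower (0.0676%). That split depended on the centring, and was 11 higher and 23 lower on the values as deposited, 10 and 16 with quantile normalization, and 14 and 16 after lowess. The plot of level against difference shows the falls of Sf1 and Pum3 lying far outside the cloud.

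**Figure D1:**
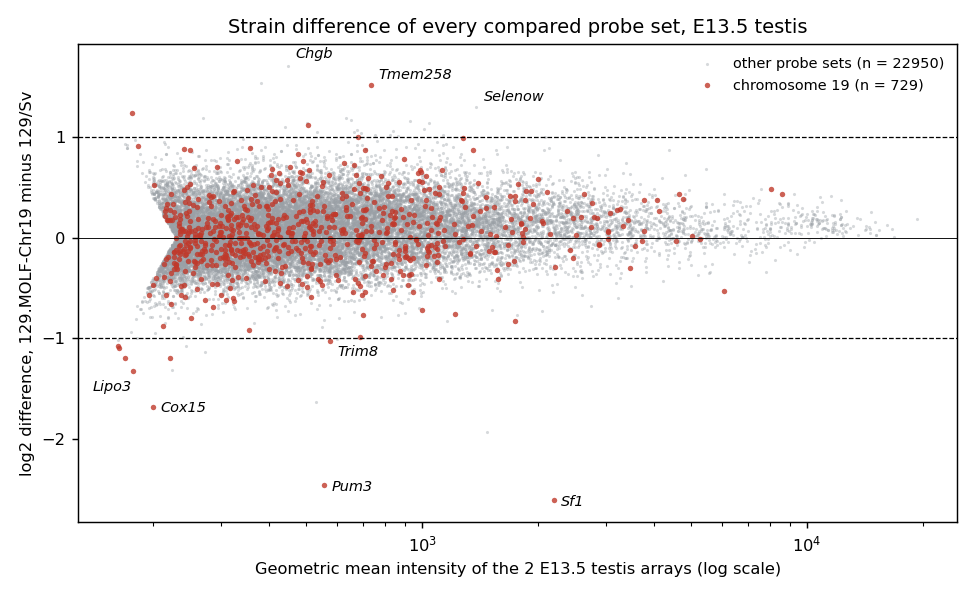
Each point is a compared probe set, with the geometric mean intensity of both E13.5 testis arrays on a log x axis and the log2 difference, 129.MOLF-Chr19 minus 129/Sv, on the y axis; red marks the 729 probe sets on chromosome 19 and dashed lines mark 2-fold. Most points lie within 2-fold, and the lowest 3 named points, Sf1, Pum3 and Cox15, are on chromosome 19.

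By the representing probe set, 7 genes were at least 2-fold higher in 129.MOLF-Chr19 (0.0559% of 12526). They were Chgb, Tmem258, Nenf, Kat2b, Rex1bd, Arpc4 and Ctsz. The largest rise was that of Chgb, which encodes chromogranin B, a protein of neuroendocrine secretory granules. On its only probe set it read 258 in 129/Sv and 777 in 129.MOLF-Chr19, a difference of 1.71 or 3.26-fold. It was at the floor on both PN1 testis arrays and read 300 and 325 in the embryo, where the difference was 0.20. The other secretory granule genes compared lay nearer 0: Cpe, a hormone-processing carboxypeptidase, was at 0.24, the catecholamine enzymes Th and Dbh were both at 0.13 and Scg3 was at −0.13. Of the 12 genes measured on that list, 7 did not pass the filter, from −0.04 in Scg2 and Scg5 to 0.44 in Chga. Adrenal cortex markers had a median of −0.12 over 4 genes.

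Tmem258, a chromosome 19 gene for a subunit of the oligosaccharyltransferase, the enzyme that attaches N-linked sugar chains to proteins in the endoplasmic reticulum, read 452 and 1196, a difference of 1.52 or 2.87-fold. Its other expressed probe set read 251 and 219, a difference of −0.08, so the rise was seen by 1 of 2 probe sets. The same probe set was higher by 1.20 in the PN1 testis and by 1.24 in the embryo.

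The other 5 higher genes lie on other chromosomes. Nenf, which encodes a secreted neurotrophic factor, read 453 and 938 (1.17). Kat2b, which encodes the PCAF lysine acetyltransferase, read 354 and 716 (1.13), but its other expressed probe set was at 0.08. Rex1bd read 313 and 617 (1.10). These reads rest on 1 probe set each or on one that its partner did not share. Arpc4, a subunit of the Arp2/3 complex that nucleates branched actin, read 826 and 1546 on one probe set (1.02) and 590 and 964 on another (0.82). Ctsz, the lysosomal protease cathepsin Z, was higher on all 3 of its probe sets, at 0.62, 0.96 and 1.02. For Arpc4 and Ctsz, therefore, every expressed probe set read higher in the consomic strain.

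Other genes passed 2-fold on a probe set that does not represent them. Selenow, which encodes a small selenoprotein, read 918 and 2085 on one probe set (1.30) and 3540 and 4548 on the other (0.48). Canx, the lectin chaperone calnexin of the endoplasmic reticulum, read 608 and 1165 on one (1.06), while a brighter probe set was at 0.28. Ndufb7, a subunit of respiratory complex I, was at 1.08 and 0.42. Pik3r1, the regulatory subunit of phosphoinositide 3-kinase, was at 1.05 on one probe set and between 0.26 and 0.44 on the other 3. Fscn1, which encodes the actin-bundling protein fascin, was at 1.14 and 1.05 on a pair of probe sets and at 0.02 and 0.16 on the other pair, where signals were higher. The first of those low values turned negative on the values as deposited, with quantile normalization and after lowess. Cd99, a cell surface glycoprotein gene, was the most uniform, at 0.84, 1.01 and 1.04 on its 3 probe sets.

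Upstream sequence is shown for Chgb, the gene with the largest rise, and for Ddost and Tmem258, the members of the oligosaccharyltransferase that lay highest. These are the 250 bases before the annotated start in the RefSeq table of assembly GRCm38.p6, which is the sequence of neither strain compared here. All 3 lie on the plus strand: Chgb at chr2:132781392-132781641, Ddost at chr4:138304488-138304737 and Tmem258 at chr19:10203952-10204201. Capitals mark the cyclic AMP response element TGACGTCA in Chgb and the CCAAT box in Ddost, both searched on either strand. Tmem258 held no CCAAT box in this window.
Chgb: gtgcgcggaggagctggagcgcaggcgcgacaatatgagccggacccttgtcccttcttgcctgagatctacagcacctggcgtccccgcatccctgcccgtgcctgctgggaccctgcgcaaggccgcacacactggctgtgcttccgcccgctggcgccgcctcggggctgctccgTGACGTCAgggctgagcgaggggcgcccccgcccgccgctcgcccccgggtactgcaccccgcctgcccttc
Ddost: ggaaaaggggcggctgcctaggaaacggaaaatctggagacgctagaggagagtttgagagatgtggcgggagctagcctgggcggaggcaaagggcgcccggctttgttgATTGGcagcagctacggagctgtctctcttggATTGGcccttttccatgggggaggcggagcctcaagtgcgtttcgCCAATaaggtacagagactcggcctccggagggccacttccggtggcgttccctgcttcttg
Tmem258: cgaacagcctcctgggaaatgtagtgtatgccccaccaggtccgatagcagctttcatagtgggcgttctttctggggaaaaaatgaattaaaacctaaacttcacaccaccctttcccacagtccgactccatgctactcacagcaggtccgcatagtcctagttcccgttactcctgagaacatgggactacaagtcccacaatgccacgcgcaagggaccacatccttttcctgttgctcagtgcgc
The element of Chgb begins 72 bases before the start, and 1.62% of 27025 genes in the table hold it in the same window. A CCAAT box was found upstream of 7 of the 10 oligosaccharyltransferase genes in the table (Rpn2, Ddost, Rpn1, Stt3a, Stt3b, Dad1 and Magt1), against 34.5% of all genes. A match is a description of the letters and not of a working site.

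By the representing probe set, 4 genes were at least 2-fold lower (0.0319% of 12526): Lipo3, Usp50, Trim8 and Gm15708. Without centring, 4 genes were higher and 6 lower. Lipo3, a lipase family gene on chromosome 19, read 292 in 129/Sv and lay at the floor in 129.MOLF-Chr19, where it read 89.1, so it was at least 2.51-fold lower. It was also lower in the PN1 testis (−1.10). Trim8, which encodes a RING-type ubiquitin ligase and lies on chromosome 19, read 858 and 387 on its representing probe set (−1.03), with differences of −1.39 at PN1 and −1.06 in embryos. Its other probe sets, at 0.23 and 0.38, lay above 0. Usp50, from a family of ubiquitin proteases, read 422 and 177 (−1.14), and was at −0.97 in embryos. The predicted gene Gm15708 read 241 and 110 (−1.02), but was at 0.25 in embryos. Of these 4 genes, none had several expressed probe sets that all fell.

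Other probe sets past 2-fold on chromosomes other than 19 belonged to Slc26a8, an anion transporter gene of the male germ line (368 and 161, −1.07), and Slc6a17, of the neurotransmitter transporter family (886 and 406, −1.01). The other 2 expressed probe sets of Slc6a17 were at −0.35 and −0.06. Just inside the 2-fold line lay Rfk at 1.00 and Slc6a17 at −1.01, and just outside it lay Rnaseh2c on another probe set at 0.99 and Ndufv1 at −0.98. Aldoa and L1td1 lay between Rnaseh2c and the line, and 4930447C04Rik between Ndufv1 and the line.

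**Figure D2:**
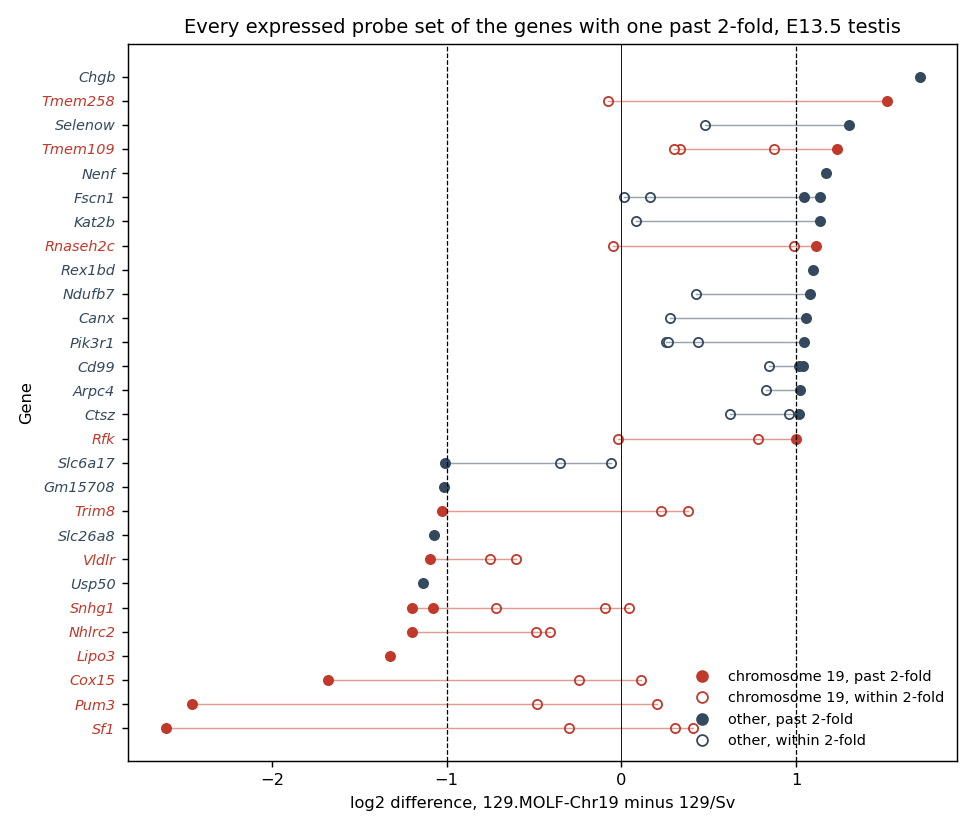
Every expressed probe set of the 28 genes with at least one probe set past 2-fold, as the log2 difference in the E13.5 testis (x axis) by gene (y axis); filled points are past 2-fold, open points are not, red is chromosome 19, and lines join the probe sets of a gene. Sf1, Pum3, Cox15, Tmem258 and Trim8 have points on both sides of 0, whereas Cd99, Arpc4, Ctsz, Nhlrc2 and Vldlr have points on one side.

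Because several reads of a gene on one array are the only repeat these data hold, genes whose expressed probe sets all moved the same way were listed. Among 5058 genes with 2 or more expressed probe sets, all expressed probe sets were past 1.5-fold in 17 that were higher (0.336%) and in 3 that were lower (0.0593%). Probe sets of one gene share the RNA pool and the array, so they repeat the reading and not the biology. None of the 17 higher genes lies on chromosome 19, which holds 3.54% of the genes with several expressed probe sets. With the values as deposited or after quantile normalization 5 genes were higher on all probe sets, and after lowess 6, against 3 lower under each.

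The higher group held genes of several cell functions. Uhrf1, which guides maintenance of DNA methylation at replication, read 688 and 1014 on one probe set and 419 and 684 on the other (0.68 and 0.82), and it was also above 0 at PN1 (0.21 to 0.51) and in embryos (0.46 to 0.48). Pfdn5, a subunit of the prefoldin chaperone, read 1264 and 2176 on one probe set (0.90) and 1196 and 2013 on the other (0.87). Genes of protein and RNA synthesis in the group were Sars, the seryl-tRNA synthetase (0.64 and 0.80), and Nhp2, of the box H/ACA ribonucleoproteins (0.65 and 0.80). Mitochondrial and metabolic genes were Coa3, a cytochrome c oxidase assembly factor (0.77 and 0.88), Urod of haem synthesis (0.60 and 0.86), Nadk2, a mitochondrial NAD kinase (0.59 and 0.60), and Nt5c3b, a nucleotidase (0.67 and 0.75). Signalling and surface genes were Cab39 (0.72 and 0.81), the kinase Rps6ka6 (0.67 and 0.70), the protease inhibitor Spint2 (0.64 and 0.72), the matrix protein Emilin1 (0.66 and 0.68) and Cd99. Commd1 was at 0.64 and 0.84 and Nmral1 at 0.60 and 0.68.

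These genes were chosen on their fetal testis values, so lower values in the other tissues follow largely from that choice. Over all compared probe sets, only 1.4% rose past 1.5-fold at PN1 and 1.75% in embryos. The next counts therefore do not show that the rises are particular to the fetal testis. At PN1, 16 of the 17 had each of these probe sets below the lowest of the fetal testis, and in embryos 17 of 17, counting also those not above the array median there. In the PN1 testis the probe sets of Cd99 ran from −0.16 to 0.02, those of Arpc4 from −0.05 to 0.13 and those of Cab39 from −0.96 to 0.05. In the embryo Cab39 was at 0.52 to 0.61, and Commd1 at 0.03 to 0.60.

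The 3 genes lower on every expressed probe set were Vldlr, Trdn and Zfp825. Vldlr, the very low density lipoprotein receptor gene and the only one of the 20 genes on chromosome 19, read 1647 and 901 on its representing probe set (−0.75), 415 and 252 on another (−0.60), and 249 and the floor on the last (−1.10). Of the 6 probe sets of Vldlr measured, these 3 were expressed. They ran from −0.29 to −0.04 at PN1 and from −0.44 to 0.26 in embryos, counting also those not above the array median there. Trdn, the sarcoplasmic reticulum protein triadin, read 510 and 261 (−0.85) and 434 and 246 (−0.70). It ran from −0.03 to −0.00 at PN1 and from −0.50 to −0.41 in embryos. With no filter, 0 genes were lower on all their probe sets. The zinc finger gene Zfp825 was at −0.70 and −0.74 here and at −0.60 and −0.52 in the embryo, but it lay above 0 in the PN1 testis, at 0.78 and 0.50.

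Chromosome 19 held 3.54% of the compared probe sets with 1 gene symbol and 41.9% of those past 2-fold (13 of 31). The share was 69.2% of the lower ones (9 of 13) and 22.2% of the higher ones (4 of 18). It was 28.6% with a filter at the 75th percentile, 29.2% with a floor at the 40th, 35.7% without the probe sets of Sf1, Pum3 and Cox15 and 63.2% with quantile normalization. At 1.5-fold, 8.37% of its 729 probe sets passed, against 3.16% over the other chromosomes, none of which exceeded 4.28%. The gap was wider among falls, at 3.43% against 0.450%, than among rises, at 4.94% against 2.71%, and one other chromosome reached 4.06% for rises and none passed 0.814% for falls. Over all compared probe sets, 2.66% passed 1.5-fold as rises and 0.676% as falls. When its probe sets were cut into 10 bins by gene order, each bin held 3 to 10 past 1.5-fold. None of these gaps was tested, since each strain had 1 array.

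**Figure D3:**
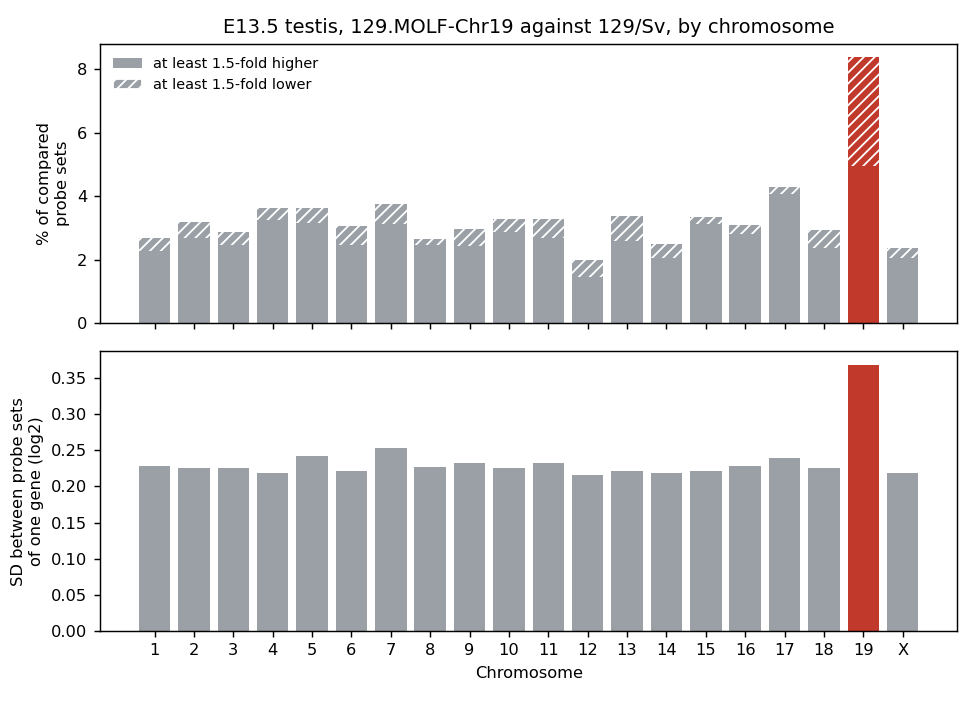
Upper bars give the percent of compared probe sets of each chromosome past 1.5-fold, higher (plain) and lower (hatched); lower bars give the standard deviation of log2 differences between expressed probe sets of one gene. Chromosome 19, in red, stands at 8.37% and 0.37, and the other chromosomes reach at most 4.28% and 0.25.

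Probe sets of one chromosome 19 gene often disagreed. The pooled standard deviation between expressed probe sets of a gene was 0.37 over 179 chromosome 19 genes and 0.23 over 4879 genes elsewhere, where single chromosomes ran from 0.22 to 0.25. Probe sets lay at least 1.00 apart in 12 of the 179 genes (6.70%) and in 31 of the 4879 (0.635%). Of 37 chromosome 19 genes with several expressed probe sets and any of them past 1.5-fold, 24 had probe sets of opposite sign under this centring (64.9%), against 125 of 384 elsewhere (32.6%). In 1 of the 37, Vldlr, all were past 1.5-fold (2.70%), near the 19 of 384 elsewhere (4.95%). All 6 compared probe sets that were at the floor on one array of the pair were on chromosome 19. The deposited values come from probes designed on a reference sequence, so a change of transcript level and a change of sequence under the probes of MOLF chromosome 19 cannot be told apart in them.

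The 3 genes that the submitters name as candidates show this spread. Sf1 encodes splicing factor 1, which binds the branch point of introns. On the probe set 1459765_s_at it read 5664 in 129/Sv and 856 in 129.MOLF-Chr19, a difference of −2.61 or 6.10-fold lower, and the same probe set gave −2.62 at PN1 and −3.09 in embryos. Its other 3 expressed probe sets were at −0.30, 0.31 and 0.41, so they did not repeat that fall. In embryos the representing probe set of Sf1 read 8012 and 2874 (−1.39).

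Pum3 encodes a nucleolar Puf-family RNA-binding protein. It read 1357 and 228 on 1434173_s_at (−2.46 or 5.49-fold lower), with −2.48 and −2.25 in the other tissues, and 0.20 and −0.48 on its other expressed probe sets. Cox15, which makes the haem A of cytochrome c oxidase, read 373 in 129/Sv and was at the floor in 129.MOLF-Chr19 on 1437982_x_at, where it was at least 3.20-fold lower. Its other expressed probe sets were at 0.11 and −0.25. In each of these 3 genes the fall past 2-fold thus rested on 1 probe set of 3 or 4.

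The other chromosome 19 genes past 2-fold differed in the same respect. Rnaseh2c, a subunit of ribonuclease H2, was at 1.12 and 0.99 on a pair of probe sets and at −0.05 on another. Rfk, the riboflavin kinase gene, was at 1.00, 0.78 and −0.02. Tmem109, which encodes a membrane protein, lay at the floor in 129/Sv and read 260 in 129.MOLF-Chr19 on one probe set, at least 2.36-fold higher, and its other expressed probe sets were all above 0, from 0.30 to 0.87. Nhlrc2 fell on one probe set (348 and 140, −1.20) and was lower on the others, at −0.49 and −0.41. Snhg1, a host gene of small nucleolar RNAs, was at the floor in 129.MOLF-Chr19 on a pair of probe sets, at least 2.29-fold and 2.11-fold lower, and at −0.72, −0.10 and 0.04 on the others, the last below 0 without centring. In Tmem109, Nhlrc2 and Vldlr all expressed probe sets had one sign.

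Past 1.5-fold but within 2-fold, Ndufv1, the flavoprotein subunit of respiratory complex I, was at −0.98 on one probe set and up to 0.26 on its others. Probe sets of Cdc37l1 ran from −0.54 to 0.76, those of Ric1 from −0.38 to 0.91 and those of Cacul1 from −0.80 to 0.42. These 4 genes are among the 12 whose probe sets lay at least 1.00 apart.

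The same 31 probe sets were then read in the other tissues of the same strains. Several had passed the filter only through the fetal testis array on which they read high. Of the 13 on chromosome 19, 8 were also compared at PN1 and 7 in embryos. The others, with neither array above its median there, were the probe sets of Nhlrc2, Snhg1, Vldlr and Tmem109, and in embryos Lipo3. All 8 kept their sign at PN1, 7 of them past 1.5-fold, and all 7 did so in embryos, 6 of them past 1.5-fold. Over all compared probe sets, 1.4% passed 1.5-fold as rises at PN1 and 1.75% in embryos, and 4.39% and 2.27% as falls. Of the 18 on other chromosomes, 13 were compared at PN1, where 7 kept their sign and 1 was past 1.5-fold the same way. In embryos 17 were compared, 11 kept their sign and 2 were past 1.5-fold. Over all genes compared, 56.2% lay above 0 at PN1 and 53.2% in embryos. The share of all compared probe sets that keep their sign between tissues was not counted, so the sign counts have no background beside them. Kat2b was past 1.5-fold in both tissues, at 1.30 and 1.00, and Usp50 in embryos, at −0.97.

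Fscn1 went the opposite way in the PN1 testis. Its pair of probe sets past 2-fold read 586 and 353 (−0.73) and 400 and 143 (−1.48) there, and its other probe sets were at 0.34 and −0.09. Among the newborn arrays, Actb gave a ratio of 3 prime to 5 prime signal of 1.84 in 129.MOLF-Chr19 and 1.19 in 129/Sv, and its part in this difference was not tested. Over all probe sets compared in both tissues, fetal testis differences correlated with those at PN1 at r = 0.45 on chromosome 19 (687 probe sets) and 0.18 elsewhere (18599). With the embryo, r was 0.61 (674) and 0.34 (18377). The chromosome 19 values include the large falls of Sf1, Pum3 and Cox15 and were not recomputed without them. These are descriptions across probe sets, which share the array design and, within a gene, the transcript.

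**Figure D4:**
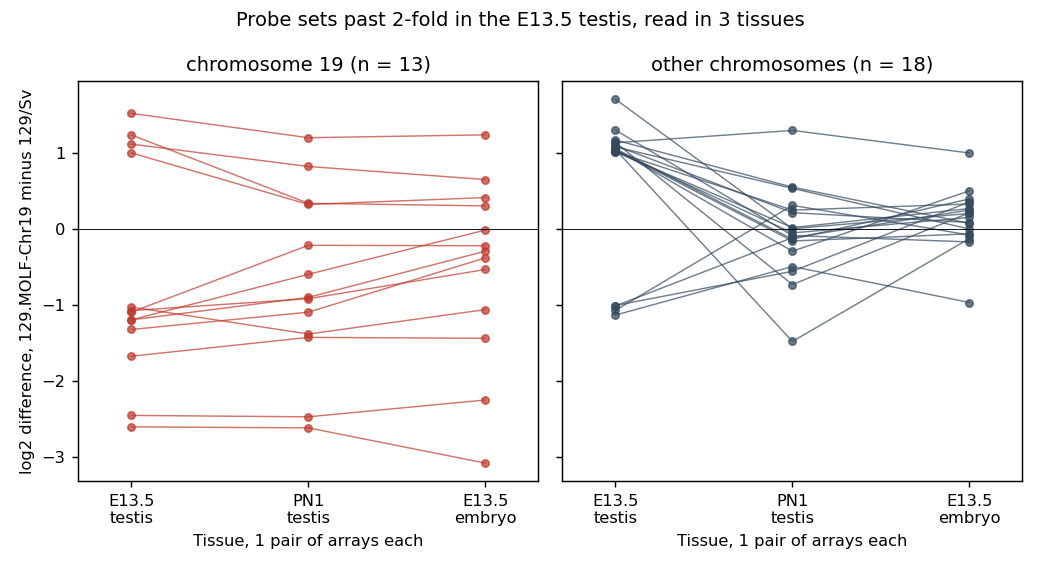
Each line is a probe set with 1 gene symbol that was past 2-fold in the E13.5 testis, with its log2 difference in the 3 tissues (1 pair of arrays each), for 13 on chromosome 19 (left) and 18 on other chromosomes (right). Lines on the left stay on their side of 0 in all 3 tissues, though 5 of these probe sets at PN1 and 6 in embryos were not above the median of either array; most lines on the right lie near 0 at PN1 and in embryos.

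The marker lists of testis cell types moved little. In whole gonads fewer cells of a type and less RNA per cell cannot be told apart. Over all genes compared the median difference was 0.06 and 59.2% were above 0, with 2.01% past 1.5-fold as rises and 0.487% as falls. Of 14 germ cell genes, none passed 1.5-fold, 6 lay above 0 and the median was −0.06. The summed signal of all 18 members measured, before centring, was 20250 in 129/Sv and 17843 in 129.MOLF-Chr19. The array medians differed in the same direction, at 239.1 and 220.5. Dazl, the germ cell RNA-binding protein gene with the lowest value, was at −0.43 and −0.21 on its probe sets, Kit, the receptor for stem cell factor, was highest at 0.20, and the helicase gene Ddx4 read 395 and 386 (0.09, which turned negative on the values as deposited).

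Of 10 pluripotency genes, none passed 1.5-fold, 5 lay above 0 and the median was −0.00. Pou5f1, the master regulator of pluripotency, read 665 and 784 (0.36), Sox2 was at 0.34 and Zfp42 at 0.39, whereas Lin28a, a let-7 inhibitor, was at −0.42. The genes of Nodal signalling and male germ cell fate had a median of 0.05 over 11, from Smad4 at −0.33 to Smad2 at 0.48. Of 13 genes measured on the list of meiosis entry, 8 did not pass the filter. The 5 compared were Stra8 (−0.14), Dmc1 (−0.11), Smc1b (−0.20), Msx1 (−0.01) and Msx2 (−0.19). All 5 were below 0, with a median of −0.14. No gene of these lists that was compared was past 1.5-fold. Lefty2, an inhibitor of Nodal, was at 0.96 but was not above the median of either array and so was not compared.

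Sertoli cell genes had a median of 0.15, with 13 of 17 above 0 and 1 past 1.5-fold. That gene was Col9a3, a collagen chain gene, which read 665 and 1024 (0.74) on one probe set and 449 and 440 (0.09) on another. Gata4, a transcription factor of the somatic gonad, was at 0.48 and 0.44 and the hedgehog ligand gene Dhh at 0.43 and 0.47, while Amh was at 0.25 and Sox9 at −0.16. On the values as deposited, with quantile normalization and after lowess the list median was 0.03 to 0.04, with 11 of 17 above 0. The summed signal of all 19 members measured, before centring, was 21467 in 129/Sv and 21713 in 129.MOLF-Chr19. Fetal Leydig cell genes had a median of −0.14, with 2 of 9 above 0 under the centring used and 0 of 9 under each other scaling. The steroid enzyme gene Cyp17a1 read 1954 and 1535 (−0.23). Interstitial and peritubular genes had a median of −0.07 over 15, and ovary and granulosa genes −0.07 over 10.

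Endothelial genes had a median of 0.27 (0.15 as deposited), with 10 of 13 above 0 and 2 past 1.5-fold, Tie1, an endothelial receptor kinase, at 0.81 (206 and 334), and the tight junction gene Cldn5 at 0.67 (366 and 538). Kdr and Flt1, the receptors for vascular endothelial growth factor, were at −0.21 and −0.19. The summed signals of the list before centring were 9746 and 9725. By probe set the endothelial median was 0.11 over 19. Erythroid genes had a median of 0.29 over 8, and the summed signal of the 10 measured, before centring, was 27559 and 31104. Macrophage genes were at 0.04 over 10, mesonephros and kidney genes at −0.08 over 9 and neural genes at −0.09 over 6. The muscle list, at 0.29 over 7, ran from Ckm at −0.57 to Actc1 at 0.59. On the Y chromosome the median of 4 genes was −0.01.

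**Figure D5:**
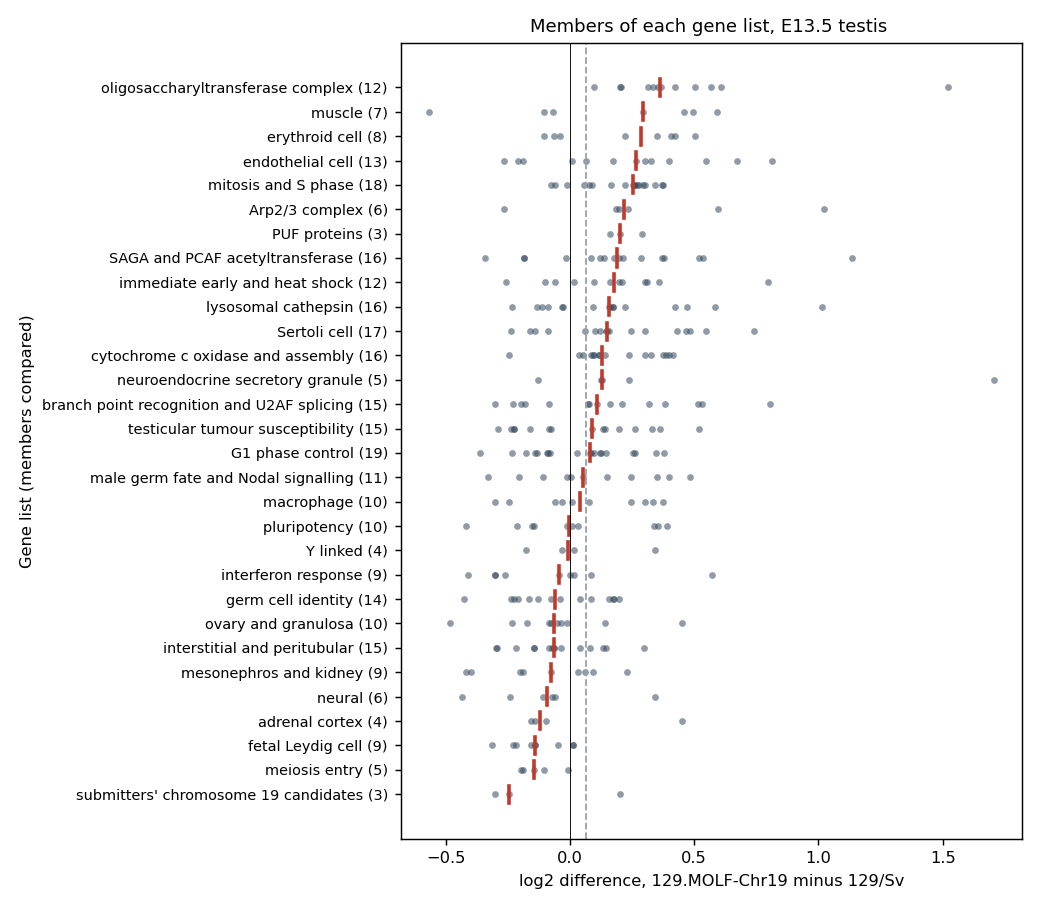
Points are the compared members of each gene list, by the probe set that represents the gene, on the log2 difference axis; the red bar is the list median and the dashed line the median of all genes, 0.06. The oligosaccharyltransferase list lies highest, at 0.36 with all 12 members above 0, and the fetal Leydig cell and meiosis lists lie among the lowest, at −0.14.

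Of the pathway lists, the oligosaccharyltransferase complex lay highest. All 12 subunits compared were above 0, with a median of 0.36, and 2 were past 1.5-fold. These were Tmem258 and Ddost, a non-catalytic subunit gene that read 1634 and 2297 (0.61). Dad1 read 2223 and 3041 (0.57), Rpn2 1103 and 1441 (0.50), and the catalytic subunits Stt3a and Stt3b were at 0.33 and 0.10. By probe set the median was again 0.36, with 21 of 23 above 0, against 0.09 and 63.1% over all compared probe sets with 1 gene symbol.

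Signal level moved with this result, since 10 of the 12 genes were in the brightest of the 5 bins, where the median was 0.12. After lowess, which removes that trend, the list median was 0.24 with 11 of 12 above 0, and all genes were at −0.01. Without Tmem258 the median was 0.36. At PN1 the list was at 0.16 (9 of 12 above 0; all genes 0.03), and in embryos at 0.08 (8 of 12; all genes 0.02). The list was drawn up with the value of Tmem258 known.

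Mitosis and S phase genes had a median of 0.26, with 15 of 18 above 0 and none past 1.5-fold. Mki67, the proliferation marker, was at 0.37, the ribonucleotide reductase gene Rrm1 at 0.38 and the replication licensing gene Mcm2 at −0.08. The 19 genes of G1 control had a median of 0.08, from Ccne1 at −0.36 to Ccnd3 at 0.38. After lowess the mitosis and S phase median was 0.14, with 12 of 18 above 0. The 6 Arp2/3 genes were at 0.22, with Arpc4 and Arpc1a (0.60) past 1.5-fold and Arpc2 at −0.26. The Arp2/3 median was 0.10 under each other scaling. The cathepsin and lysosome list was at 0.16 (0.04 as deposited), and Ctsz was its only member past 1.5-fold. The 16 cytochrome c oxidase genes were at 0.13, with Cox15 lowest at −0.25, and 15 of 16 lay above 0. Their median was 0.01 on the values as deposited and 0.02 after lowess, each with 9 of 16 above 0. The 16 SAGA genes were at 0.19, with Kat2b highest, and at 0.07 as deposited. The splicing list around Sf1 was at 0.11, with Snrpa1 of the U2 particle at 0.80 on one probe set and 0.35 and 0.44 on its others. The 3 genes of the PUF list were at 0.20 (0.08 as deposited). Pum3 entered that list by its representing probe set at 0.20, and not by the one at −2.46. By probe set, 4 of 7 on the list lay above 0 (57.1%), against 63.1% over all.

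Known testicular tumour susceptibility genes had a median of 0.09 over 15, from A1cf at −0.29 to Mad1l1 at 0.52, and none passed 1.5-fold. Kitl, the ligand of Kit, was at 0.33, and Dnd1, whose loss causes these tumours on the 129 background, was at −0.08. Interferon response genes were at −0.05 over 9. Immediate early and heat shock genes, which respond to handling, were at 0.18 over 12, with Ier2 the only one past 1.5-fold, at 0.80 (480 and 769), and the list was at 0.06 as deposited. On the values as deposited the medians of the Nodal, G1, macrophage, splicing and tumour susceptibility lists turned negative, so their signs are those of the centring.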

How the data were processed

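RNA from pooled E13.5 testes of 129/Sv and 129.MOLF-Chr19 was hybridised to 1 Affymetrix mouse array each. The deposited values are probe set intensities on a linear scale. The method by which the authors summarised and scaled them is not given in the sources used here. Of 45101 probe sets, 64 were controls, 34945 carried 1 gene symbol in the platform annotation, 932 several and 9160 none, and 34741 were matched by gene identifier to the RefSeq genes of GRCm38.p6, which gave the chromosome and order.

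Intensities were raised to the 25th percentile of the array, put on the log2 scale and centred on the non-control median. A probe set was compared where the higher array lay above its median (50th percentile). Among its single-symbol probe sets, that of highest mean over the 6 arrays represented a gene, and all its other expressed probe sets were read too. Counts used 2-fold and 1.5-fold, without a test. The steps were run on simulated data, with known differences set only in bright probe sets and noise below the spread of the real differences. That run could not check values near the floor or the filter. Python 3.11.15, numpy 2.4.6, pandas 2.3.3, statsmodels 0.14.6 and matplotlib 3.10.9 were used.

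Genes were named where the representing or any expressed probe set passed 2-fold, where all expressed probe sets passed 1.5-fold and where a list member passed 1.5-fold. Sf1, Pum3, Cox15 and some cell type markers were named too. The highest and lowest members were named for some lists only, so the named members do not give the full range of every list. Other list members and genes of chromosome 19 were picked after their values were seen. The 31 lists held 414 genes, 377 of them measured. The comparison, members and lists were chosen with earlier results of these data known, so no list gives independent support. Xist did not pass the filter. Alternatives were other scalings, floors, filters, thresholds and probe set rules. Probe sequences and the unpooled testes were not analysed here.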

Additional observations from a re-analysis of the deposited data

Results flagged for a closer look

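The actin-bundling gene Fscn1 was more than 2-fold higher in the E13.5 testis of 129.MOLF-Chr19 on a pair of probe sets, and the same probe sets were lower there in the PN1 testis, by −0.73 and −1.48 (log2). The difference between ages was not tested, since each strain and age had 1 array.

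Probe sets with no gene symbol in the platform annotation stood outside the gene comparisons and also passed 2-fold in the E13.5 testis. Higher in 129.MOLF-Chr19 were 1436362_x_at at 1.54 (233 and 623), 1458303_at at 1.06 (487 and 939) and 1426538_a_at at 1.01 (634 and 1180). Lower were 1455930_at at −1.93 (3004 and 726), 1442989_at at −1.63 (969 and 288) and 1438454_at at −1.31 (368 and 137). In the PN1 testis 1438454_at was at −0.76, whereas 1442989_at was at 0.52. There 1455930_at was above the median of neither array and at the floor in 129.MOLF-Chr19 (−0.66). In embryos 1455930_at was at −0.52 and 1442989_at at 0.17, and 1438454_at, above neither median, at −0.30. The higher probe sets, in the order above, were at 0.56, 0.44 and 0.08 at PN1 and at 0.95, 0.10 and 0.46 in embryos. Their genes and chromosomes are not known here, and none of these differences was tested.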

How the results depend on the processing

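Each strain had 1 array, so no array could be left out. No paired analysis was possible because each group has 1 sample, numbered only by accession order. On the values as deposited, 4 genes were at least 2-fold higher, 11 probe sets were, and 5 genes were 1.5-fold higher on all expressed probe sets. With quantile normalization these were 3, 10 and 5, and 63.2% of probe sets past 2-fold with 1 gene symbol lay on chromosome 19. After lowess, 14 probe sets were higher and 6 genes were higher on all. A floor at the 40th percentile left 2 genes and 10 probe sets lower. A filter at the 75th percentile left 1 gene and 6 probe sets lower, and 1 gene lower on all probe sets; with no filter that last count was 0. At 3-fold, 1 gene and 1 probe set were higher, and 0 genes and 5 probe sets lower. Among the few of these with 1 gene symbol, 75% lay on chromosome 19. By 2-fold on all probe sets, 0 genes were higher and 0 lower. At 1.5-fold, 252 genes and 630 probe sets were higher, and 61 and 160 lower. Of the probe sets among these with 1 gene symbol, 8.88% lay on chromosome 19. Averaging a gene over its probe sets, 3 genes were higher and 2 lower. Without probe sets ending in _s_at or _x_at, an alternative added after seeing the data, 8 genes were higher and 1 lower on all. With no floor, 12 of the probe sets past 2-fold passed 1.5-fold the same way in both other tissues, against 7, counting also those not above the array median there. The cause of these moves was not tested. The standard deviation between probe sets of a chromosome 19 gene ran from 0.30 to 0.404 over all alternatives, and was 0.314 without Sf1, Pum3 and Cox15, added after seeing the data. Elsewhere it ran from 0.211 to 0.235. Of 240 list medians under alternatives, 238 moved by less than 0.229, the standard deviation between probe sets of one gene on the other chromosomes. Most list medians are themselves smaller than that value, so this is a loose check.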

Other observations

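A further 3 probe sets whose annotation lists several genes also passed 2-fold in the E13.5 testis and so could be given to no single gene. The probe set of Gm7846 and Lsm5 read 438 and 921 (1.19), that of Acaa1b and Acaa1a, peroxisomal thiolase genes, had a difference of 1.19, and that of Alyref2 and Alyref, mRNA export factor genes, read 646 and 1331 (1.16). The Alyref probe set was at 0.25 at PN1 and 0.55 in embryos.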
